A study of Mus musculus with 6 samples.

Results

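Protein and lipid kinases, phosphatases and the subunits that steer them were drawn from a list of transcripts enriched in muscle spindle neurons of the mouse. The members were the probe sets of the authors' deposited list that carry a single gene symbol and a gene title with the word kinase or phosphatase. Of the 52 such probe sets, 4 were left out by gene (Pik3c3, Lrrk2, Pdk2 and Eif2ak2) and none for a title word of nuclear factors. This left 48 probe sets of 44 genes, out of 626 listed probe sets and 45101 on the array. The title decided membership, so that the group holds enzymes as well as inhibitors, anchors and regulatory subunits named for them.

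The study measured RNA of proprioceptive sensory neurons, the dorsal root ganglion cells that report muscle length through muscle spindles (MS) and muscle tension through Golgi tendon organs (GTO). All animals were of a mixed C57bl/129sv background, of both sexes, between postnatal days 7 and 10, and carried the alleles Egr3::WGA-cherry, PV:Cre and Thy1-lsl-YFP. Neurons positive for Cherry and YFP made up the MS samples (3 samples, about 1250 neurons each), and neurons positive for YFP without Cherry the GTO samples (3 samples, about 725 neurons each). The labels call both populations enriched, not pure, and each sample pooled several sorts, so the spread between samples is that between pools of neurons. The sort rests on Cre under control of PV (parvalbumin) and on Cherry tied to Egr3, a transcription factor of the spindle lineage.

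Kinases add a phosphate group to proteins, lipids or small metabolites and phosphatases remove it, and the balance of both sets the activity of most signalling pathways. Many protein kinases act in cascades and some are held at their substrates by anchoring proteins, whereas some phosphatases gain their specificity largely from regulatory subunits. In sensory neurons such enzymes carry neurotrophin signals from the periphery to the cell body, adjust ion channels and take part in the response to axon injury.

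Values are the deposited log2 values of each probe set, 1 array per sample. Because the list had been selected by the authors for at least 5-fold higher values in MS at a p-value below 0.08 on these same arrays, higher values in MS are what defined the members. They are given here as a description, with no test. Levels of different probe sets are not compared as amounts of RNA, since brightness also depends on the probes. The 27 probe sets of bacterial spike-in controls that gave no signal averaged between 1.89 and 2.79 over the arrays, and log2 4 was taken as the level of background. Where all GTO arrays lay under it, the fold is a lower bound, the mean of the MS arrays against log2 4. In pooled neurons, fewer cells with a transcript and less RNA per cell cannot be told apart.

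The arrays differed in signal. The upper quartile of all probe sets without controls lay between 6.78 and 6.86 for MS, and on GTO arrays 1, 2 and 3 it was 6.67, 6.20 and 5.55. The GTO samples also held fewer neurons, and the effects of neuron number, array signal and neuron class cannot be told apart. Of 25 fixed markers of Schwann cells, satellite glia, fibroblasts, macrophages, endothelium and nociceptors, 2 stood on the deposited list. Mbp, the myelin protein of Schwann cells, ranged from 5.98 to 7.18 on the MS arrays and from 2.49 to 3.32 on the GTO arrays. Sparc, a matrix protein of fibroblasts, ranged from 7.23 to 9.32 and from 3.20 to 4.23. Their part in the values of the kinases and phosphatases was not tested. Of 11 markers of proprioceptors and neurons, Whrn alone was listed, with MS values of 3.15, 5.11 and 6.61 and GTO values of 2.28 to 2.35. The other markers could not be read here, since gene names come from the deposited list alone.

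By role, the members were 20 protein kinase genes (21 probe sets), 3 lipid or metabolite kinase genes (4 probe sets), 10 protein phosphatase genes (12 probe sets), 1 phosphatase of a small metabolite, and 10 genes of regulatory subunits, inhibitors and anchoring proteins. The MS mean minus the GTO mean had a median of 2.99 on the log2 scale over the 48 probe sets and ranged from 2.36 to 5.05. With values under log2 4 raised to it, the median was 2.69. The median over all 626 listed probe sets was 3.22, and over the 16256 probe sets tested it was 0.31. On the MS arrays the means of the members ran from 4.83 to 10.60 with a median of 7.60, and on the GTO arrays from 2.40 to 7.22 with a median of 4.20. Folds in the authors' deposited table ran from 5.13 for Akap13 to 33.2 for Bpnt2 among the members.

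**Figure D1:**
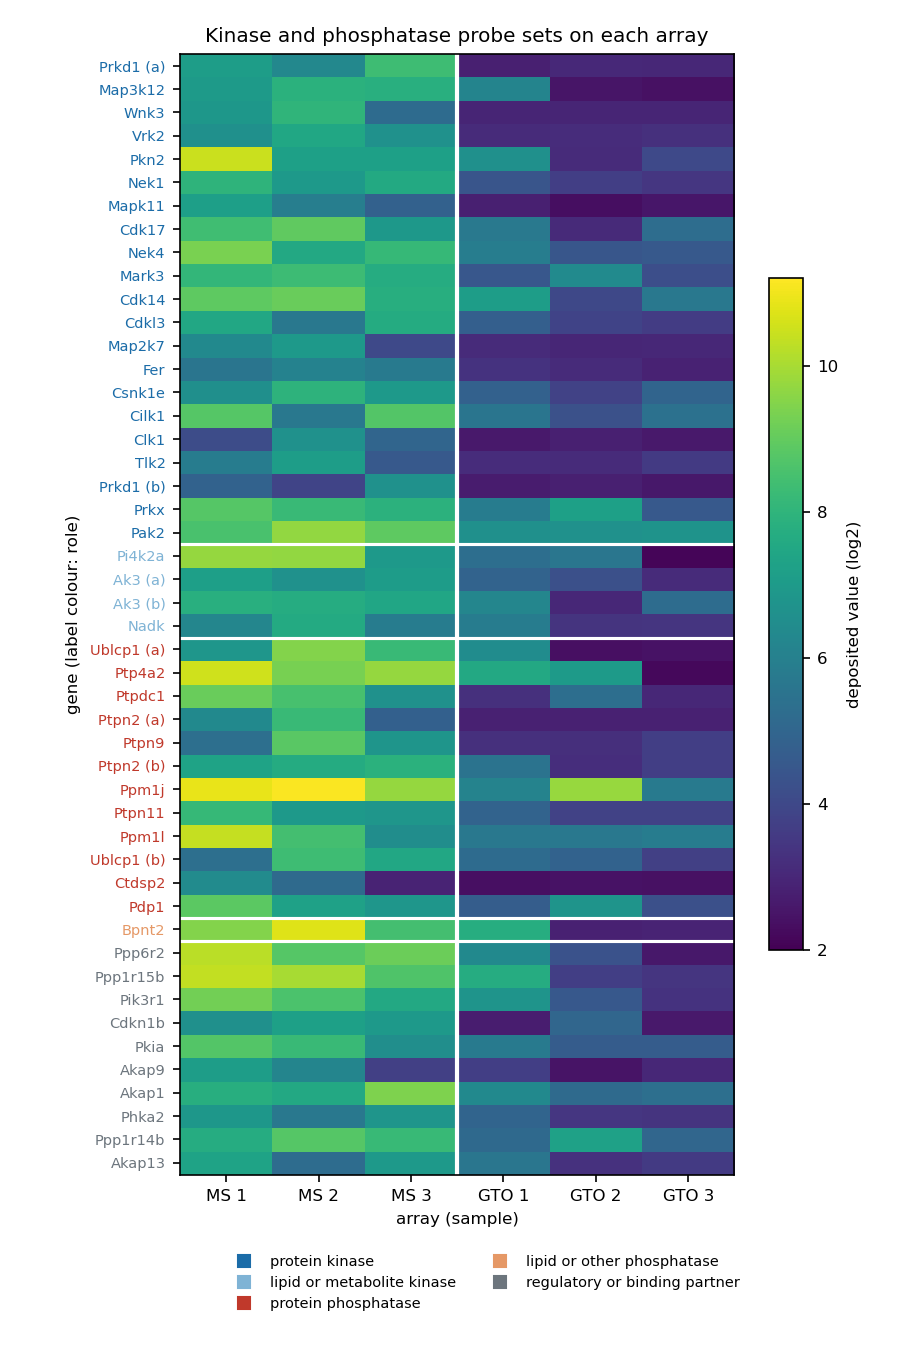
Heat map of the deposited log2 value (colour) of the 48 kinase and phosphatase probe sets (rows, grouped by role and ordered by the difference of group means) on the 3 MS and 3 GTO arrays (columns). Letters mark the probe sets of a gene with several, and the GTO 1 column is brighter than GTO 2 and GTO 3 for many genes, such as Map3k12 (6.17 against 2.51 and 2.43) and Bpnt2 (7.75 against 2.85 and 2.91).

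MAP kinase cascades contributed an enzyme of each of their 3 tiers. Map3k12 encodes the dual leucine zipper kinase, a neuronal MAP kinase kinase kinase known for its role in axon injury signalling, Map2k7 encodes a MAP kinase kinase that acts on the Jun N-terminal kinases, and Mapk11 encodes the beta form of the p38 kinases. Of 59 genes on a list of this cascade, 4 stood on the deposited list: these 3 and Map3k20, a stress-activated kinase whose title in the deposited list is a clone name. None of the 14 dual specificity phosphatases listed as MAP kinase phosphatases was on it, which says nothing of their levels. No share of all genes can be set beside such counts, here or below, since gene names come from the deposited list alone. Nothing is read from their size. The promoters of these 3 members are shown because they stand for the 3 tiers of MAP kinase cascades, though Map2k7 and Mapk11 belong to different branches. Each sequence is a window of 300 bases around the start of the gene, most of it upstream, from RefSeq's table for GRCm38.p6, 5′ to 3′ as that table gives them. Those of Map3k12 (chr15:102516955-102517254, minus strand), Map2k7 (chr8:4238490-4238789, plus strand) and Mapk11 (chr15:89149557-89149856, minus strand) are given in lower case, with the GC box GGGCGG and its reverse complement CCGCCC in capitals.
Map3k12: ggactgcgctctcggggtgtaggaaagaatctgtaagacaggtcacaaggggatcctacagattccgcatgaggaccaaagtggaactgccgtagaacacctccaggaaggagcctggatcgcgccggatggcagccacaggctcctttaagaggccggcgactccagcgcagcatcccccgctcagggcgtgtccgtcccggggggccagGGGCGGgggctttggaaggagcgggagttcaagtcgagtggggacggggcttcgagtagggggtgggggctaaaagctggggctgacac
Map2k7: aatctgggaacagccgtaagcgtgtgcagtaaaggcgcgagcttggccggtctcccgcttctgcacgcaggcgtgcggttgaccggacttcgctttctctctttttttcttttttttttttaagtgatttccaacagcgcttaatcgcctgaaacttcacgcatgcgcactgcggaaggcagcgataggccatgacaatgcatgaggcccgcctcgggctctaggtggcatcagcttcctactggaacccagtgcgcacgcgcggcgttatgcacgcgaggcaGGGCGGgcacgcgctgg
Mapk11: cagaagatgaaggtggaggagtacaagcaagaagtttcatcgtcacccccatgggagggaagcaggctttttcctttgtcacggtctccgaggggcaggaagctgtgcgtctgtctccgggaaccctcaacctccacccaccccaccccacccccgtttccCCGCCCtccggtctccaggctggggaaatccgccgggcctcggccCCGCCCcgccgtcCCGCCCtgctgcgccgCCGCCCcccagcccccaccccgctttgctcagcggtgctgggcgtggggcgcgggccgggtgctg
For Map3k12 and Map2k7 the first of 2 promoters in the table is printed. The GC box, a motif bound by Sp-family factors, occurred 1 time in the windows of Map3k12 and Map2k7 and 4 times in that of Mapk11.

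The values of these kinases differed in form. In array order 1 to 3, Map3k12 read 7.03, 7.88 and 7.79 in MS, and 6.17, 2.51 and 2.43 in GTO. GTO array 1 thus lay near the MS arrays while the other two were at background, and the difference of 3.87 between the group means fell to 1.40 against GTO array 1 alone. Mapk11 read 7.18, 5.93 and 4.87 in MS and 2.79, 2.33 and 2.57 in GTO, an excess in MS of at least 3.98-fold. Map2k7 read 6.38, 6.94 and 4.04 in MS and 3.13, 2.98 and 3.03 in GTO, an excess of at least 3.44-fold. For both, all GTO arrays were at background and MS array 3 was the lowest of its group, for Map2k7 just above log2 4. Map3k20 read 8.64, 7.53 and 5.33 in MS and 5.21, 2.43 and 2.86 in GTO, again with GTO array 1 as the highest of its group and close to MS array 3.

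Among the other protein kinases, Prkd1, Wnk3 and Vrk2 were at background on every GTO array, so that only bounds of their differences can be given, whereas Pkn2 was above it on GTO arrays 1 and 3. Prkd1, protein kinase D1, which is activated by diacylglycerol and protein kinase C, was measured by 2 listed probe sets. The brighter gave 7.11, 6.28 and 8.33 in MS and 2.83, 3.05 and 3.02 in GTO, an excess in MS of at least 9.46-fold, which was the largest such bound among the members. The dimmer gave 4.89, 3.89 and 6.67 in MS and 2.69, 2.79 and 2.61 in GTO, at least 2.22-fold higher. Both probe sets ordered the MS arrays alike, with MS array 3 highest and MS array 2 lowest, and both were at background on every GTO array. Only listed probe sets have gene names here, so any unlisted probe sets of Prkd1 or other members could not be read. Wnk3, a kinase that controls cation-chloride cotransporters, read 6.87, 8.02 and 5.23 in MS and 2.94, 2.95 and 2.94 in GTO, at least 6.53-fold higher. Its MS arrays spread over 2.78 on the log2 scale while its GTO arrays stayed at background. Pkn2, a relative of protein kinase C, read 10.45, 7.24 and 7.21 in MS and 6.61, 3.13 and 4.03 in GTO. The high mean of Pkn2 in MS came from MS array 1, and the lowest MS array lay 0.60 above GTO array 1.

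Vrk2, a membrane-anchored kinase of the vaccinia-related family, read 6.63, 7.49 and 6.66 in MS and 3.14, 3.16 and 3.27 in GTO, at least 7.60-fold higher, with all GTO arrays at background. Pak2, an effector of Rac and Cdc42 on the actin cytoskeleton, had the brightest probe set of the protein kinases by MS mean, with 8.56, 9.71 and 8.92 in MS and 6.62, 6.67 and 6.74 in GTO. Pak2 was above background on every GTO array, and these agreed to within 0.12.

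Of the remaining 12 protein kinases, the 9 above background on at least 1 GTO array had differences from 2.42 to 3.66 on the log2 scale. Nek1 and Nek4 belong to the NIMA family, Nek1 being known for a role at the primary cilium, and Cilk1 (listed as Ick) is another kinase of cilia. Nek1 had means of 7.52 ± 0.51 in MS and of 3.86 ± 0.50 in GTO, and Nek4 8.35 ± 0.90 and 4.98 ± 0.80 (SD, n = 3). Cilk1 separated the groups by 0.10, since MS array 2 read 5.68 and GTO array 1 read 5.58. Cyclin-dependent kinase relatives were Cdk14, which pairs with cyclin Y, Cdk17, a PCTAIRE-type kinase, and Cdkl3, with differences of 2.99, 3.38 and 2.86. Fer (listed as Fert2), a tyrosine kinase that acts on cadherin and catenin complexes, had the narrowest spread in MS of the protein kinases, with 5.59, 6.07 and 5.78, against 3.36, 3.14 and 2.89 in GTO, at least 3.52-fold higher. Mark3, a kinase of microtubule-associated proteins, measured 8.03 ± 0.31 and 5.04 ± 1.19 in MS and GTO, and Prkx, a relative of the cyclic AMP-dependent kinase, 8.30 ± 0.43 and 5.88 ± 1.33 (SD, n = 3). For both of them GTO array 2 was the highest of its group, at 6.40 and 7.23. Csnk1e, a casein kinase of the circadian clock, differed by 2.64. Clk1, which phosphorylates splicing factors, and Tlk2, which acts on a chaperone of nucleosome assembly, were at background on all GTO arrays, with bounds of at least 2.38-fold and 3.60-fold.

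**Figure D2:**
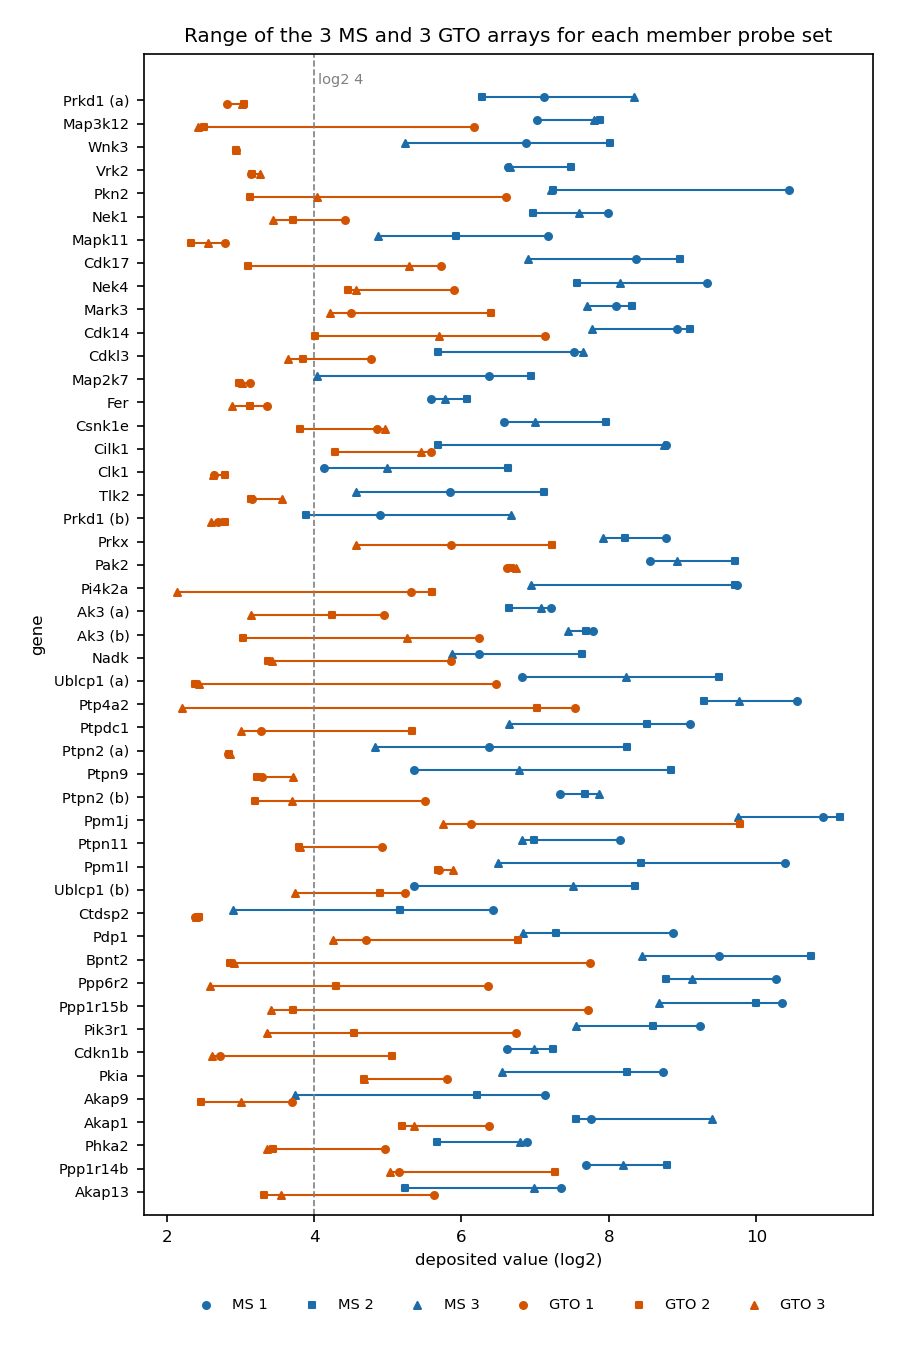
Deposited log2 values (horizontal axis) of each of the 48 probe sets, with MS arrays in blue and GTO arrays in orange, a line from the lowest to the highest array of each group, and log2 4 as a dashed line. The groups overlap for Akap13 and Ppm1j alone, and values left of the dashed line are at background.

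Among lipid and metabolite kinases, Pi4k2a had the largest difference and the brightest probe set by MS mean. It makes phosphatidylinositol 4-phosphate on endosomes and the trans-Golgi network, and read 9.74, 9.70 and 6.94 in MS and 5.32, 5.60 and 2.14 in GTO. GTO array 3 alone was at background, and MS array 3 was low, so that the MS arrays spread over 2.80 on the log2 scale. Ak3, the adenylate kinase of the mitochondrial matrix, read 7.79, 7.69 and 7.44 in MS and 6.23, 3.03 and 5.26 in GTO with its brighter probe set, and 7.21, 6.65 and 7.08 in MS and 4.94, 4.25 and 3.15 in GTO with the other. The differences, 2.80 and 2.87, were close, whereas the GTO array at background was array 2 for the first probe set and array 3 for the second. Nadk, which makes NADP, read 6.23, 7.64 and 5.87 in MS and 5.86, 3.37 and 3.43 in GTO. For Nadk the groups nearly met, with 0.01 between MS array 3 and GTO array 1, and against GTO array 1 alone the difference was 0.72, the smallest of all members.

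Protein phosphatases included 4 non-receptor tyrosine phosphatases of 24 on that list, and none of the 21 receptor-type tyrosine phosphatases. Ptpn2, which dephosphorylates JAK kinases, was measured by 2 listed probe sets. They gave 7.34, 7.67 and 7.87 in MS with 5.51, 3.19 and 3.69 in GTO, and 6.38, 8.25 and 4.83 in MS with 2.83, 2.85 and 2.86 in GTO. The difference was 3.50 for the first probe set, and the second, at background on every GTO array, was at least 5.60-fold higher in MS. The MS arrays agreed closely for the first and spread widely for the second. Ptpn9, a phosphatase of secretory vesicles, read 5.35, 8.84 and 6.78 in MS and 3.29, 3.23 and 3.72 in GTO, at least 7.96-fold higher. Ptp4a2, a prenylated phosphatase of the PRL group, read 10.55, 9.30 and 9.76 in MS and 7.54, 7.03 and 2.21 in GTO. Its low GTO mean of 5.59 ± 2.94 (SD, n = 3) came from GTO array 3. Ptpn11, the phosphatase SHP2 that links receptor tyrosine kinases to the Ras pathway, had means of 7.32 ± 0.73 in MS and of 4.18 ± 0.64 in GTO (SD, n = 3).

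The other protein phosphatases came from several families. Ublcp1, a phosphatase of the nuclear proteasome, had 2 listed probe sets, which read 6.82, 9.49 and 8.23 in MS and 6.47, 2.38 and 2.43 in GTO, and 5.36, 8.36 and 7.51 in MS and 5.23, 4.90 and 3.74 in GTO. In both, MS array 1 lay just above GTO array 1, by 0.35 and 0.12, and the differences of the means were 4.42 and 2.45. Ptpdc1, a phosphatase linked to cilia and the centrosome, read 9.10, 8.52 and 6.64 in MS and 3.28, 5.33 and 3.01 in GTO. Ppm1j, of the metal-dependent PP2C family, had the brightest probe set of all members by MS mean. It read 10.91, 11.13 and 9.76 in MS and 6.13, 9.78 and 5.75 in GTO, so that GTO array 2 overlapped MS array 3. Its relative Ppm1l read 10.39, 8.44 and 6.50 in MS against 5.69, 5.69 and 5.88 in GTO, an MS range of 3.89 log2 units over a GTO range of 0.19. Pdp1, which reactivates pyruvate dehydrogenase in mitochondria, differed by 2.42 with a gap of 0.06 between the groups. Ctdsp2, a phosphatase of the C-terminal domain of RNA polymerase II, was at background in GTO and also on MS array 3, at 2.90, with a bound of at least 1.78-fold. Bpnt2 (listed as Impad1), a Golgi phosphatase that clears a by-product of sulfation, read 9.49, 10.73 and 8.44 in MS and 7.75, 2.85 and 2.91 in GTO. Its difference was the largest of all members as deposited, but with values under log2 4 raised to it, it was 4.31, below the 4.50 of Ppp6r2 and the 4.44 of Ppp1r15b. GTO array 1 again lay near the MS arrays, and the difference of 5.05 became 1.81 against that array alone.

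Regulatory subunits, inhibitors and anchors completed the group. Ppp6r2, a regulatory subunit of protein phosphatase 6, read 10.26, 8.78 and 9.13 in MS and 6.36, 4.30 and 2.58 in GTO. Ppp1r15b, which directs protein phosphatase 1 to the translation factor eIF2 alpha, read 10.35, 9.99 and 8.68 in MS and 7.71, 3.72 and 3.41 in GTO. Pik3r1, the regulatory subunit of class I phosphoinositide 3-kinases, read 9.24, 8.60 and 7.55 in MS and 6.75, 4.54 and 3.36 in GTO. In all of these GTO array 1 was the highest and GTO array 3 the lowest of the GTO arrays. Cdkn1b, the cyclin-dependent kinase inhibitor p27, read 6.61, 7.23 and 6.99 in MS and 2.73, 5.05 and 2.61 in GTO. Pkia, an inhibitor of the cyclic AMP-dependent kinase, read 8.74, 8.25 and 6.54 in MS and 5.80, 4.68 and 4.68 in GTO. GTO array 2 was the highest GTO array for Cdkn1b, whose MS arrays agreed to within 0.62, and GTO array 1 the highest for Pkia.

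Of 15 kinase anchoring proteins on the list for them, 3 stood on the deposited list. Akap1, an anchor at the mitochondrial outer membrane, had an MS mean of 8.24 ± 1.02 and a GTO mean of 5.64 ± 0.64 (SD, n = 3). Akap9, which binds kinases at the Golgi and centrosome, read 7.13, 6.20 and 3.74 in MS and 3.70, 2.47 and 3.01 in GTO, so that MS array 3 was at background too. Akap13, an anchor that is also a guanine nucleotide exchange factor, read 7.35, 5.24 and 6.98 in MS and 5.62, 3.32 and 3.55 in GTO. MS array 2 lay 0.38 below GTO array 1, which made Akap13 the other member with overlapping groups. Phka2, a regulatory subunit of phosphorylase kinase, and Ppp1r14b, an inhibitor of protein phosphatase 1, differed by 2.52 and 2.40 with no overlap.

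The members were not evenly low in GTO. All 48 probe sets reached log2 4 on MS array 1, 47 on MS array 2 and 46 on MS array 3. On GTO arrays 1, 2 and 3 the numbers were 33, 20 and 16. Of the 48, 13 probe sets of 12 genes were at background on all GTO arrays (27.1%, against 33.1% of all listed probe sets). Of these 13, 9 belonged to protein kinases, which held 21 of the 48. Ptpn2 was among the 12 genes by its dimmer probe set alone, its other reading 5.51 on GTO array 1. With only the brightest probe set of each gene, the count was 11. A further 11 of the 48 were above background on GTO array 1 alone (22.9%, against 18.4% of all listed), 2 on GTO array 2 alone and 0 on GTO array 3 alone. At the other end, 12 were above background on every GTO array: Nek4, Mark3, Cdk14, Cilk1, Prkx, Pak2, Ppm1j, Ppm1l, Pdp1, Pkia, Akap1 and Ppp1r14b.

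GTO array 1 was the highest of the GTO arrays for 28 of the 48 members (58.3%), against 51.6% of all listed and 36.4% of all tested probe sets. MS array 3 was the lowest of the MS arrays for 24 of the 48, against 51.8% of all listed and 36.8% of all tested. The median of the MS mean minus the GTO value was 2.45, 3.21 and 3.41 on the log2 scale for GTO arrays 1, 2 and 3. The lower the upper quartile of a GTO array, the larger was this median, and the part of array signal in it was not tested. Across the 48 probe sets, which are not replicates, Pearson's r was 0.49 to 0.57 within MS and 0.33 to 0.48 within GTO. Between arrays of different groups it was 0.27 to 0.72. Over all tested probe sets r was 0.82 to 0.87 within MS, 0.67 to 0.76 within GTO and 0.68 to 0.87 between groups. GTO array 1 correlated more with MS array 3 than with GTO arrays 2 and 3. Its r was 0.72 against 0.33 and 0.40 over the members, and 0.87 against 0.74 and 0.76 over all tested.

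**Figure D3:**
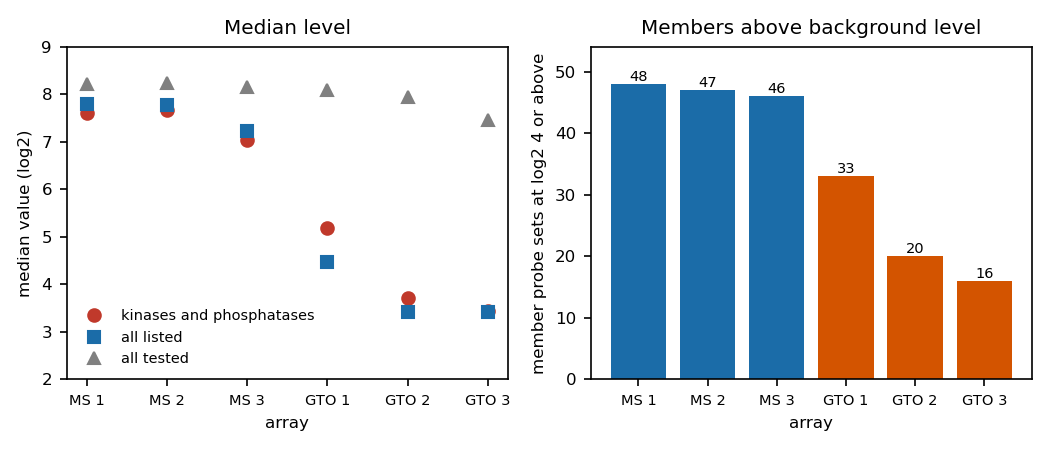
Left, median log2 value on each array of the 48 kinase and phosphatase probe sets, of all 626 listed probe sets and of the 16256 tested. Right, number of the 48 at log2 4 or above on each array, which is 46 to 48 in MS and 33, 20 and 16 on GTO arrays 1, 2 and 3.

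With no overlap between the groups, MS lay above GTO for 46 of the 48 members, against 4.25% of all probe sets without controls. The selection of the list favours separation, and nothing is read from this count. The 5 narrowest gaps without overlap, 0.01 to 0.12, were those of Nadk, Akap9, Pdp1, Cilk1 and the dimmer probe set of Ublcp1, that of Akap9 lying between values at background. In the fit across all probe sets tested, 0 of the 45 members that passed the filter on low values had a limma adjusted p under the threshold of 0.05 (lowest 0.0854, Vrk2), beside 0.0185% of all tested. The 3 members that did not pass the filter were Ctdsp2, Akap9 and the dimmer probe set of Prkd1, and the 45 that passed were all at least 2-fold higher in MS with unadjusted p-values under 0.05, beside 6.48% of all tested, which the selection again brings about. Just inside the thresholds of the list lay Akap13 and Nadk, at 5.13-fold in the authors' deposited table, and Ctdsp2 and Cilk1, with p-values there of 0.0785 and 0.0762. Just outside were an unnamed probe set at 4.99-fold and others of 30.2-fold and 9.78-fold at p-values of 0.0801 and 0.0802.

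How far the differences reached 5-fold depended on the scale of the arrays, on values under log2 4 and on GTO array 1. With values under log2 4 raised to it, 37 of the 48 members kept at least 5-fold. After quantile normalization of the deposited values, 28 of the 48 members kept at least 5-fold (as deposited, 3.22% of all probe sets without controls reach it), and 48 of 48 were still higher in MS, the smallest difference being 1.84 on the log2 scale. That scaling moved the median difference of all tested probe sets from 0.31 to 0.02. Against GTO array 1 alone, 28 members reached 5-fold and 46 reached 2-fold, Nadk and Akap13 falling short of it. The median difference against that array was 2.45 for the members and 2.79 for all listed probe sets. Shares of all probe sets reaching 5-fold under these treatments were not computed, so the counts describe the members alone. Of the 48, 16 reached 5-fold as deposited, after quantile normalization, after centring on the tested probe sets, with values under log2 4 raised to it, and against GTO array 1 alone. These were the protein kinases Prkd1 (the brighter probe set), Wnk3, Vrk2, Nek1, Nek4, Cdk17 and Mark3, the lipid kinase Pi4k2a, the phosphatases Ptp4a2, Ptpdc1, Ptpn2 (the dimmer probe set), Ptpn9, Ptpn11 and Ppm1j, and Ppp6r2 and Cdkn1b. Map3k12, Bpnt2 and Ppp1r15b, with larger differences as deposited than most of these, were not among them, and each fell short of 5-fold against GTO array 1. With values under log2 4 raised to it, the difference of Map3k12 was 2.84, smaller than that of most of the 16. GTO array 2 alone was not among these treatments. Against it, Ppm1j, Mark3 and Cdkn1b, all among the 16, differed by 0.82, 1.63 and 1.89 on the log2 scale. They thus fell short of 5-fold against a single GTO array as well.

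**Figure D4:**
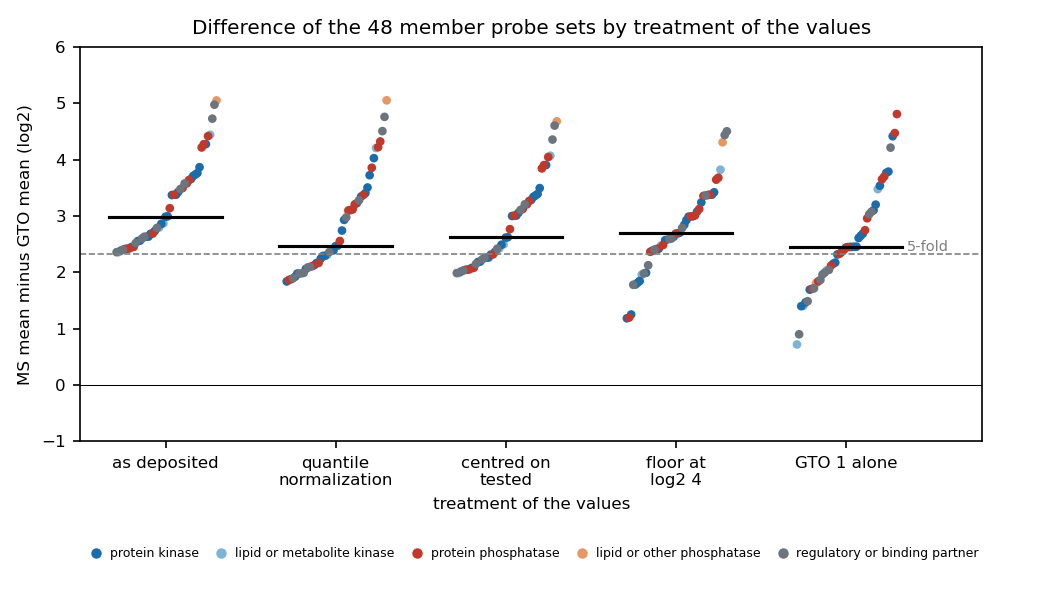
MS mean minus GTO mean (log2, vertical axis) of the 48 members as deposited, after quantile normalization, after centring each array on the tested probe sets, with values under log2 4 raised to it, and with GTO array 1 as the only GTO array. Colours give the role, black lines the medians (2.99, 2.47, 2.62, 2.69 and 2.45) and the dashed line 5-fold.

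Beyond the members, 22 lists of kinase and phosphatase families with 750 genes were read against the deposited list. They held 46 listed genes, of which 37 were members and 9 carry titles without either word. Besides Map3k20, those described here are Ocrl, Acvr2a, Bmpr1a, Ssh2, Trio, Speg and Plppr5. Ocrl, an inositol phosphatase of endosomes, had means of 8.97 ± 0.68 in MS and of 5.67 ± 2.00 in GTO (SD, n = 3). The receptor kinases Acvr2a, for activins, and Bmpr1a, for bone morphogenetic proteins, were 2 of 12 on the list of that family, with differences of 3.55 and 3.89. For both the groups nearly met. Acvr2a read 8.85 on MS array 3 and 8.81 on GTO array 1, and Bmpr1a 5.14 on MS array 3 and 5.03 on GTO array 2. Ssh2, a cofilin phosphatase, read 6.63, 6.55 and 6.95 in MS and 4.16, 4.14 and 4.00 in GTO, a narrow spread in both groups. Its GTO values lay close to log2 4, the level of background, and GTO array 3 was just under it. Trio, a guanine nucleotide exchange factor with a kinase domain, differed by 3.11, and Speg, a kinase of the myosin light chain kinase family known from muscle, by 4.79 with 1 probe set, and was at least 8.66-fold higher with another that was at background on every GTO array. Plppr5, a phospholipid phosphatase-related membrane protein, differed by 2.66. No receptor tyrosine kinase of 54, no receptor-type tyrosine phosphatase of 21 and no diacylglycerol, sphingosine or inositol phosphate kinase of 25 was listed. Since the list was made for one direction, a gene's absence gives no level for it.

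For the members as a whole, 32 of 44 genes had a promoter in the RefSeq table, 48 windows in all. At least 1 GC box (GGGCGG, either strand) was in 33 of them (68.8%), against 46.2% of 21263 windows of protein-coding genes. CCAAT was in 27.1% against 38.2%, TATAAA in 6.25% against 12.6%, and TGACGTCA, the full site of cyclic AMP response factors, in 1 window (2.08% against 2.23%). The windows had a median of 24 CpG dinucleotides and 66.3% G and C, against 13 and 56.3%. Several windows belong to the same gene, and a match is a description of the letters, not of a factor's binding. Windows of the other listed genes were not counted, so these differences are not shown to be particular to the members.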

How the data were processed

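RNA of sorted neuron pools was amplified before biotin labelling, per the labels' protocols, and read on 6 arrays. The deposited log2 values of 45101 probe sets name GCRMA and Partek, with no version, per the submitters' processing notes. For 626 probe sets enriched in MS, the authors deposited p-values and linear fold ratios (MS over GTO), with thresholds of 5-fold and 0.08 per the file headers. The fold recomputed from the log2 means differed from the deposited ratio by at most 2.1e-05 of its value. F statistics and sums of squares, read as scores and deposited by the authors, were not used. No source used here gave the genome build or the array annotation.

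A RefSeq gene table (GRCm38.p6) gave current symbols by Entrez identifier. All 44 member genes matched and 3 symbols changed. Without the 64 control probe sets, the 16256 that reached log2 4 on 3 or more arrays were fitted with limma 3.58.1 in R 4.3.3, with Benjamini-Hochberg adjustment over all of them. The fit was tested on simulated data, where it left most planted differences of the size seen in the members without a call. Nothing is therefore read from the lack of calls among the members. The number of arrays limits the precision. Values in every array were given for up to 5 members with the largest difference in each role, the highest MS mean in each role, members with several probe sets, overlapping groups or the 2 smallest deposited folds. Other values given, among them those of the MAP kinases, Fer, Akap9, Ppm1l and the listed genes that are no members, were chosen after being seen. Members and lists were chosen with earlier results of these data known. Replicate numbers were not taken to pair samples, since no source used here said that they mark a shared batch. Over the probe sets tested, deviations of same-numbered samples correlated at -0.06, 0.10 and 0.11, and those of other pairs of MS and GTO samples at -0.17 to 0.09. These values do not settle whether the numbers pair samples. Alternatives were other filters, scalings, a floor, the replicate block, an intensity trend, 1 probe set per gene and leaving out each array. Protein sequences were not used here, and 1 listed gene that is no member is not reported here.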

Additional observations from a re-analysis of the deposited data

How the results depend on the processing

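No member passed the adjusted threshold in limma under any of the other filters, scalings, models or left-out arrays. Over all probe sets, the count of 3 became 12 with no filter, 11 with the filter at log2 6, and 0 with the floor at log2 4, with the intensity trend, with the replicate block, after centring on the tested probe sets and without any 1 array (0 to 0). By the looser rule (2-fold or more with an unadjusted p under 0.05), the replicate block moved the count of members from 45 to 43, and leaving out 1 array to 34 to 41. Higher against lower probe sets by that rule numbered 1053 to 242 as deposited, 700 to 638 after quantile normalization, 742 to 472 after centring on the tested probe sets and 1188 to 167 after centring on all.

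Members at background on every GTO array numbered 13 at log2 4, 6 at log2 3 and 19 at log2 5. The count was 13 to 24 without 1 GTO array, being 24 without GTO array 1. At least 5-fold was kept by 28 members under quantile normalization, 30 after centring on the tested probe sets and 48 after centring on all. It was kept by 37 with the floor at log2 4, 28 with GTO array 1 alone and 39 to 46 without 1 array. The count with no overlap stayed at 40 to 47 and the median difference at 2.45 to 3.45 under every alternative run for them. Centring on the tested probe sets, the use of GTO array 1 alone and the 5-fold counts were chosen after seeing the data. The cause of these changes was not tested. Signal near background limits how low GTO levels can be read.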
